A study of Mus musculus with 8 samples.

Results

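Oxidative phosphorylation genes encode the respiratory chain and the ATP synthase of the inner mitochondrial membrane. They were taken as every gene of the expression table whose symbol begins with Nduf, Uqcr, Cox4 to Cox8, Atp5 or mt-, together with Sdha, Sdhb, Sdhc and Sdhd. This rule used names only and gave 104 of the 15039 genes listed, 89 encoded in the nucleus and 15 in the mitochondrial genome. The nuclear genes comprised 38 of complex I, 8 complex I assembly factors (Ndufaf genes), 4 of complex II, 8 of complex III, 14 of complex IV and 17 of complex V, which is the ATP synthase. Ndufa4 and Ndufa4l2, named after complex I, were placed with complex IV, where Ndufa4 protein is found. The 15 mt- genes were 13 that code for protein and 2 for ribosomal RNA. No tRNA gene of the mitochondrial genome was among them.

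RNA came from the prefrontal cortex (PFC) of wild-type male mice of the strain C57BL/6NCrljOri. At 6 weeks of age the mice received bilateral PFC injections of an adeno-associated virus (AAV2/1) in which the hsyn promoter, active in neurons, drove either mouse Rnf146 together with eGFP or eGFP alone. The tissue was taken 4 weeks later, and 4 Rnf146-overexpressing and 4 eGFP-overexpressing libraries were sequenced. Rnf146 is an E3 ubiquitin ligase that promotes the degradation of Axin, and the comparison asked how its excess in neurons changes transcripts of the PFC. The study states that the mice sequenced were ones that overexpressed Rnf146 and had social deficits, so the treated group was not a random draw of injected mice. Untransduced cells are part of the tissue in both groups, and in bulk tissue fewer cells of a type and less RNA per cell cannot be told apart.

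In the respiratory chain, complex I takes electrons from NADH and complex II takes them from succinate, and both pass them to coenzyme Q. Complex III hands them to cytochrome c and complex IV to oxygen, while complexes I, III and IV pump the protons that drive the ATP synthase. Most subunits are encoded in the nucleus and imported, whereas a small core of complexes I, III, IV and V is encoded in the mitochondrial genome, which is transcribed on both strands into long precursors that are cut into single RNAs. In the brain the pathway supplies most of the ATP that neurons use for ion pumping and synaptic transmission.

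The deposited values are on a log2 scale and were already centred within each pair of libraries that carries the same replicate number, so the 2 values of a pair always add up to the same number for a gene. Each gene therefore has 4 independent measurements, the Rnf146 value minus the eGFP value in pairs 1 to 4. All differences below are on this scale, which compresses the changes of weakly expressed genes. The number of reads per library is unknown. Rnf146 itself was higher in every pair, with differences of 2.82, 2.51, 2.66 and 2.58 and an adjusted p of 3.2e-07 (limma with the pair as a block, Benjamini-Hochberg adjustment). Its values were 10.35, 10.50, 10.43 and 10.47 in the eGFP libraries and 13.17, 13.01, 13.09 and 13.05 in the Rnf146 libraries, and these include RNA from the vector. Other tissue markers moved as well. All 19 markers of striatum and septum had a positive mean difference and 6 passed the test, with list means of 0.22, 0.95, 0.51 and 0.33 in pairs 1 to 4 and a summed level of 14.0 to 14.5 in eGFP against 14.6 to 15.1 in Rnf146 libraries. All 12 oligodendrocyte markers had a positive mean difference and none passed the test, although all 12 had an unadjusted p under 0.05. Their list means were -0.12, 0.44, 0.89 and 0.53, and their summed level was 16.1 to 16.7 in eGFP against 16.6 to 17.2 in Rnf146 libraries. In centred values the summed levels of both lists restate the pair differences and are not separate evidence on the groups. Of the 10 excitatory neuron markers 2 fell and 8 had negative means, with list means of -0.18, -0.26, -0.09 and -0.19. Of 8 microglia markers, 1 fell and all 8 had negative means. Of 8 inhibitory neuron markers 3 rose and the other 5 had negative means, of 3 ependymal markers with values (8 fixed) 1 rose, and of 8 astrocyte and 8 endothelial markers 0 passed, with 1 and 0 at an unadjusted p under 0.05. The part of these shifts in the values below was not tested beyond the covariate fits given at the end.

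Of the 104 genes, 0 passed an adjusted p of 0.1 in this fit, against 188 of all 15039 genes (1.25%), 123 of them higher (0.818%) and 65 lower (0.432%). The smallest adjusted p among them was 0.27, for mt-Nd3. At an unadjusted p under 0.05 there were 2, mt-Nd3 and Ndufb4c, whereas 12.4% of all genes were under that value. The same direction in all 4 pairs was seen for 11 of the 104 genes, 10.6%, against 20.6% of all genes. For 87 of the 89 nuclear genes the whole 95% limma interval of the mean difference lay between -0.25 and 0.25, and the exceptions were Sdhc and Ndufv2. An interval within these bounds was found for 12497 of all 15039 genes, but for only 3 of the 15 mt- genes. These intervals use a variance partly shared between genes, so they can be narrower than a variable gene's own 4 differences would give. The median of the 104 mean differences was 0.013, beside 0.00086 over all genes, and the median over the nuclear genes was 0.0045 and over the mt- genes 0.13. A fit that ignores the pairing counts the centred values as 8 independent libraries, and it called 8 of the 104 genes and 3226 of all genes (21.5%).

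**Figure D1:**
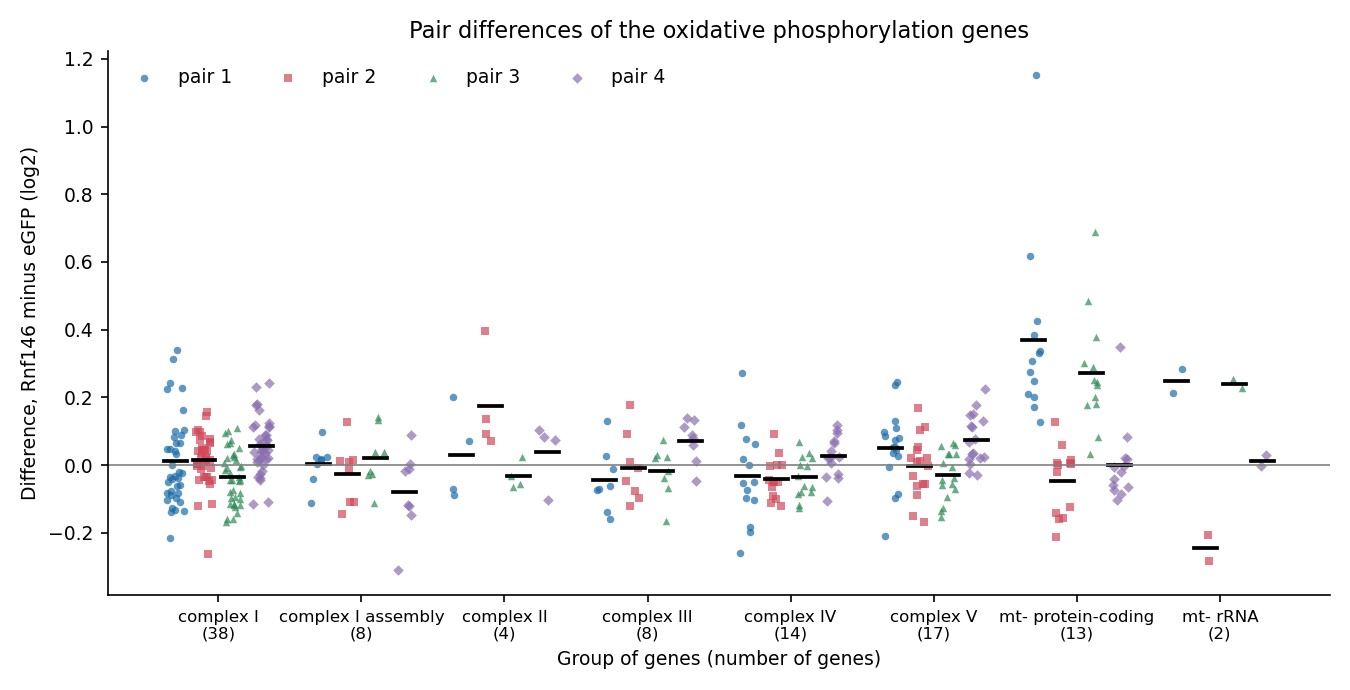
Difference between the Rnf146 and eGFP library (log2, vertical axis) for each of the 104 genes, by complex (horizontal axis) and by pair (colour and symbol), with a black bar at the mean of the genes in each pair. Nuclear genes lie around 0 in every pair, whereas the mt- protein-coding genes average 0.37 in pair 1 and 0.27 in pair 3 and lie near 0 in pairs 2 and 4.

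Sequence matters for reading the mt- genes, because a stretch of the mitochondrial genome that takes in 8 of them at least in part is repeated almost letter for letter on chromosome 1. In the GRCm39 assembly, chrM:6390-11042 aligned to chr1:24650616-24655269 on the minus strand with 99.94% identity over 4654 bases, 2 mismatches and 1 gap base. For 5 of these genes the table also lists a pseudogene of the chromosome 1 copy, and for mt-Atp8, mt-Nd4l and mt-Nd4 no such row was analysed here. Gm28661 equals mt-Co2 over 681 bases, Gm10925 equals mt-Atp6 over 678 bases and Gm28437 equals mt-Co3 over 783 bases. Gm29216 matches part of mt-Co1 at 99.79% over 483 bases. Gm28438 differs from mt-Nd3 by 1 substitution in 345 bases, T3C, counted from 1 at the first base of mt-Nd3. The start of this pair is shown because that base, in capitals, is the only difference within the bases compared. mt-Nd3 is 348 bases long and its annotated copy 345, so a read at the end of mt-Nd3 could also run past the copy. The printed bases are chrM:9459-9519 on the plus strand and chr1:24652140-24652200 on the minus strand.

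mt-Nd3: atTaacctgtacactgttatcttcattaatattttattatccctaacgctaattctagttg

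Gm28438: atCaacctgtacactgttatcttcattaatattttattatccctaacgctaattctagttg

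The ends of mt-Co2 and of its copy show the more extreme case of no difference. They are chrM:7636-7696 on the plus strand and chr1:24653966-24654023 on the minus strand, and the capitals mark the stop codon, which lies outside the annotated pseudogene.

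mt-Co2: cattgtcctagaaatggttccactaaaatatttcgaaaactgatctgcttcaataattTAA

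Gm28661: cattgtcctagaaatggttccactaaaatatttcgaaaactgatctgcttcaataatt

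For the nuclear subunits, the promoters show a feature that the choice by name did not use. Promoter sequences of RefSeq (GRCm38.p6, the 300 bases around a gene's start) matched 73 of the nuclear genes. The motif GCATGCG, the core of the site of the transcription factor NRF1, was present on either strand in 13 of these (17.8%), against 4.01% of 27025 genes. The motif CCGGAAG, bound by ETS factors such as GABP, was found on either strand in 19 (26.0%), against 9.93% of genes. TATAAA was found in 8.22% against 15.7%, and CCAAT in 42.5% against 41.1%. The comparison covers all genes with a promoter sequence, whether or not they are in the expression table. The shares among the genes of the expression table were not counted, so the contrast may partly be one of expressed against all genes. Different motifs of the 4 can share no more than an end base, whereas GCATGCG can overlap its own reverse complement, and a match is a description of letters only. The promoters of Uqcrc1 at chr9:108936398-108936697 (plus strand) and Cox6a1 at chr5:115348909-115349208 (minus strand) are printed as examples, one with the NRF1 core alone and one with both motifs. Capitals mark the motifs, the first run in each being the NRF1 core overlapping on both strands. In Cox6a1 the second run is the ETS motif on the opposite strand.

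Uqcrc1: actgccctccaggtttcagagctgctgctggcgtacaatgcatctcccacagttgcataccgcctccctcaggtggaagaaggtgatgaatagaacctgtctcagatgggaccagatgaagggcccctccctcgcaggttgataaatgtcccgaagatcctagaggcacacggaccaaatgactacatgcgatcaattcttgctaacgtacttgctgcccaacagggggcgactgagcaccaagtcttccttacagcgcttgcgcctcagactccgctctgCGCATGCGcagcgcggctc

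Cox6a1: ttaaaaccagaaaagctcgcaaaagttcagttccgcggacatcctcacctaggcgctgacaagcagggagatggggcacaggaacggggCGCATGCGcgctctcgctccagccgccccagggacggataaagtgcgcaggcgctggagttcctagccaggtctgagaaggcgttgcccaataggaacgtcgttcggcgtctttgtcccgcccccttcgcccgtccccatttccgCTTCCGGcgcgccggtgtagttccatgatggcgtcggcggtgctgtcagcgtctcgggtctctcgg

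The median difference between Rnf146 and eGFP was 0.0080 for the 13 genes with the NRF1 core, which ranged from -0.081 to 0.063, and 0.0026 for the 60 without it. For the ETS motif it was -0.0072 over 19 genes and 0.0081 over 54 genes. The difference between genes with and without a motif was not tested.

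Complex I is the NADH dehydrogenase and the largest of the complexes. Its 38 nuclear genes were split, 21 with a positive and 17 with a negative mean difference, and 0 passed the test. They include Ndufb4c, an almost identical copy of Ndufb4 described below. Their average was 0.011, 0.014, -0.035 and 0.056 in pairs 1 to 4, a mean of 0.012 ± 0.037 (SD, n = 4 pairs). Ndufv2, an iron-sulfur subunit of the NADH-oxidizing module, had the most positive difference, 0.31, 0.10, 0.063 and 0.018 in the 4 pairs. Its mean was 0.12 ± 0.13 (SD, n = 4) with an adjusted p of 0.43 (limma), and pair 1 stood above the others. Ndufs1, the largest iron-sulfur subunit, had values of 11.59, 11.62, 11.65 and 11.65 in the eGFP libraries and 11.75, 11.72, 11.68 and 11.69 in the Rnf146 libraries. Each pair had the same direction, which in centred values also keeps the groups apart and was seen for 20.6% of all genes. The mean difference was 0.083 ± 0.061 (SD, n = 4) with a limma adjusted p of 0.50. Ndufv1, which carries the NADH site, differed by -0.034, 0.16, -0.12 and 0.12, so its direction changed from pair to pair. Ndufs7, an iron-sulfur subunit close to the coenzyme Q site, had the most negative mean of the complex, -0.081, from -0.22, -0.010, -0.16 and 0.061.

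Ndufb4c falls outside the rule by which genes were named and was picked out after its values were seen. It is an almost identical copy of Ndufb4, an accessory subunit of complex I, with 99.49% identity over 391 bases, so the split of reads between the 2 genes is uncertain. Its differences were 0.10, 0.085, 0.11 and 0.18, the mean was 0.12 ± 0.042 (SD, n = 4), and the limma adjusted p was 0.33. Ndufb4 itself differed by 0.34 in pair 1 and by -0.046, -0.025 and -0.036 in the others. Ndufa12 also has such a copy in the table, Gm47673.

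The 8 complex I assembly factors are needed to build the complex and are not part of it. Of these, 3 had a positive and 5 a negative mean difference, with an average of 0.0033, -0.027, 0.021 and -0.079 in the 4 pairs. Ndufaf8 had the most negative mean of all 89 nuclear genes, -0.087 ± 0.047 (SD, n = 4), and was lower in all 4 pairs, by -0.11, -0.11, -0.11 and -0.017. Its limma adjusted p was 0.47, and its 95% interval ran from -0.19 to 0.015. Ndufaf5, a methyltransferase-family factor, had the most positive mean, 0.058, with a negative value in pair 2.

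Complex II is succinate dehydrogenase, which also works in the tricarboxylic acid cycle, and all its subunits are nuclear. Sdhc, one of its membrane anchors, had the most positive mean of all nuclear genes. Its values were 10.47, 10.37, 10.60 and 10.53 in the eGFP libraries and 10.67, 10.77, 10.54 and 10.60 in the Rnf146 libraries. The groups overlapped, because in pair 3 the eGFP library was the higher one. The differences of 0.20, 0.40, -0.064 and 0.074 gave a mean of 0.15 ± 0.20 (SD, n = 4), an adjusted p of 0.44 (limma) and a 95% interval from -0.014 to 0.32. With the striatal and septal marker mean as a covariate the Sdhc value was -0.022, which is extrapolated, because the marker mean was higher in Rnf146 in all 4 pairs. Sdhd, the other anchor, had a mean of -0.020. The catalytic subunits lay between them, Sdha at 0.070 and the iron-sulfur subunit Sdhb at 0.0080. The average of the 4 genes was 0.028, 0.17, -0.032 and 0.039 in the 4 pairs, and all 4 were positive in pair 2. The striatal and septal markers were also furthest from 0 in that pair, and a relation was not tested beyond the covariate fit. The nuclear genes of complexes I, III, IV and V averaged 0.014, -0.0090, -0.040 and -0.0040 in pair 2.

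Complex III passes electrons from coenzyme Q to cytochrome c. Its 8 nuclear subunits averaged -0.045, -0.0090, -0.017 and 0.072, a mean of 0.00033 ± 0.050 (SD, n = 4), and 4 of them lay on each side of 0. The extremes were Uqcrq at 0.065 and Uqcr10 at -0.058, both small accessory subunits. Uqcrfs1, the Rieske iron-sulfur protein, had a mean of -0.027 ± 0.056 (SD, n = 4), and Uqcrc1, a core subunit whose promoter is printed above, had -0.041 ± 0.098. None had the same direction in all 4 pairs.

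Complex IV, cytochrome c oxidase, reduces oxygen. Of its 14 nuclear genes, 10 had a negative and 4 a positive mean difference, and the most extreme on either side were Cox6a1 at -0.081 and Cox5a at 0.029. Their average was -0.033, -0.040, -0.036 and 0.026 in pairs 1 to 4. The first 3 pairs lay close together and pair 4 stood apart. Cox4i1, the main regulatory subunit, had differences of -0.10, -0.0013, -0.085 and 0.0063. Cox6a1 differed by -0.26, -0.050, -0.12 and 0.10, with a limma adjusted p of 0.65. Cox7c was lower in all 4 pairs, by at most 0.074 in any of them, and was named after its values were seen.

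Several complex IV subunits come as pairs of a general and a tissue-restricted isoform, and no isoform passed the test. Cox6a1 had a mean of -0.081 and the heart and muscle isoform Cox6a2 -0.015. Cox7a2 had -0.010 and Cox7a2l, which takes part in joining complexes III and IV, 0.0045. Cox6b1 had -0.015 and Cox8a -0.074. Ndufa4 had 0.0073 and its hypoxia-linked relative Ndufa4l2 -0.024. The isoforms Cox4i2, Cox6b2, Cox7a1 and Cox8b were not analysed here.

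Complex V, the ATP synthase, uses the proton gradient to make ATP. Of its 17 genes, 12 had a positive and 5 a negative mean difference, with an average of 0.051, -0.0040, -0.029 and 0.076 and a mean of 0.023 ± 0.048 (SD, n = 4). The catalytic beta subunit Atp5b had 0.045 ± 0.079 (SD, n = 4) and the alpha subunit Atp5a1 0.047 ± 0.093, each with a negative value in pair 3 only. Atp5j2, a small membrane subunit, had the most positive mean, 0.073, and Atp5o, the stalk subunit that confers oligomycin sensitivity, the most negative, -0.057. The 3 genes for the c-ring subunit, which encode the same mature protein, had similar means, with 0.041 for Atp5g1, 0.056 for Atp5g2 and 0.064 for Atp5g3. Atp5g1 was higher in all 4 pairs, by 0.053, 0.012, 0.032 and 0.067, and its limma adjusted p was 0.75. Atp5g2 varied most of the 3, from -0.15 in pair 3 to 0.24 in pair 1, and it has a near-identical copy in the table, Gm10175. The same holds for Atp5l and Gm10221.

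**Figure D2:**
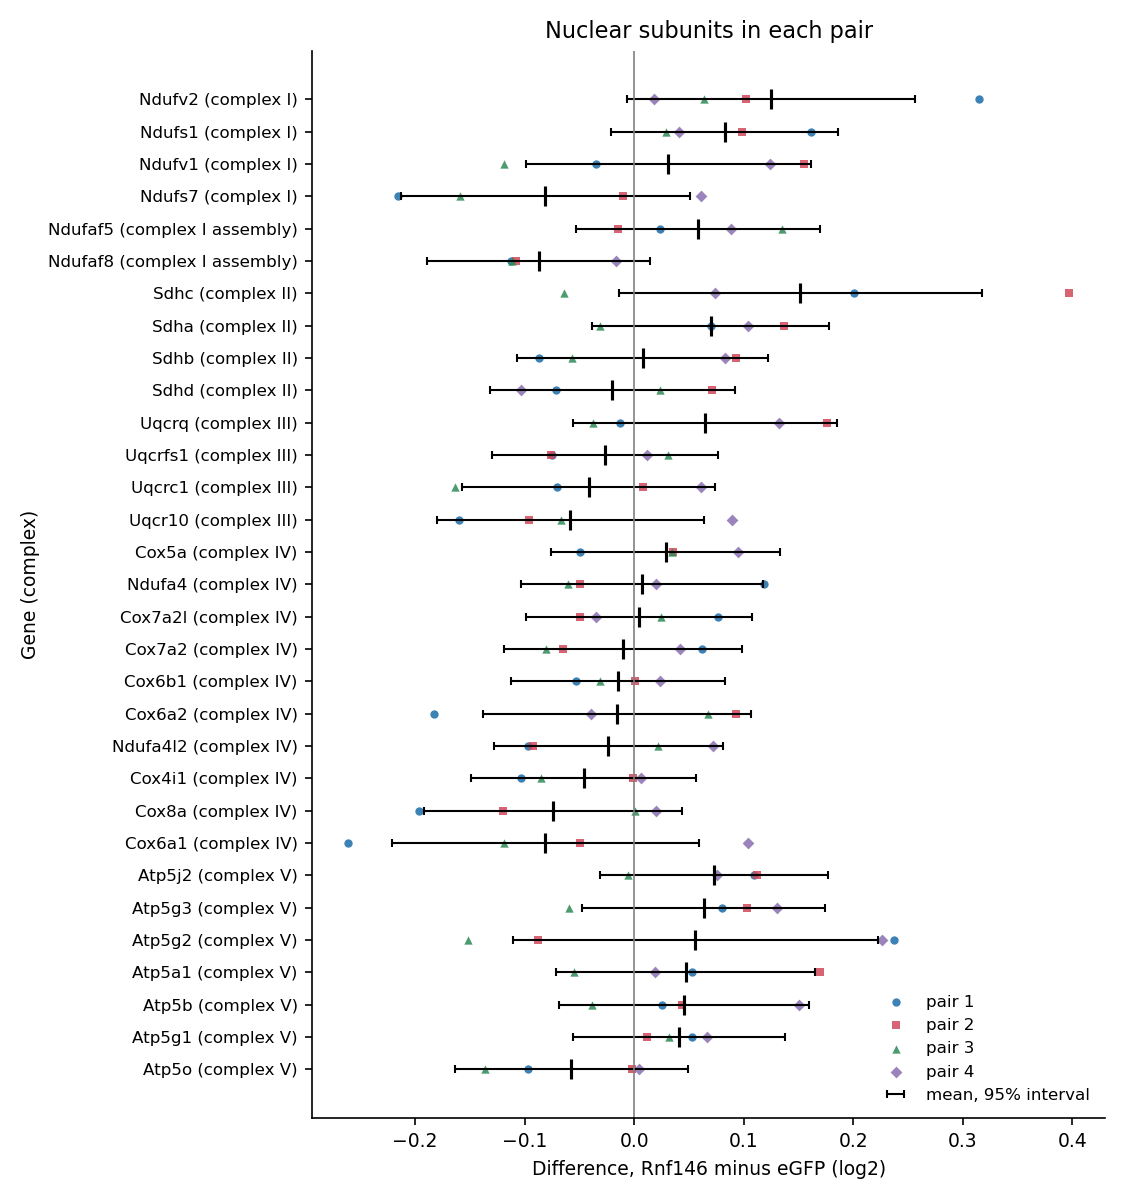
Difference between Rnf146 and eGFP (log2, horizontal axis) for the named nuclear genes, sorted by complex, with each pair as a coloured symbol and the mean with its 95% limma interval in black. Every interval includes 0, and most genes have pairs on both sides of 0, with Ndufv2, Ndufs1, Ndufaf8 and Atp5g1 as the exceptions.

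The mt- genes moved together within a pair. All 15 were higher in the Rnf146 library in pair 1 and again in pair 3, whereas 6 were higher in pair 2 and 5 in pair 4. The 13 protein-coding genes averaged 0.37, -0.046, 0.27 and 0.0013 in the 4 pairs, a mean of 0.15 ± 0.20 (SD, n = 4). The 2 ribosomal RNAs averaged 0.25, -0.24, 0.24 and 0.013, a mean of 0.064 ± 0.23. The spread between pairs was thus as large as the mean or larger. The mean differences of all 15 were positive, from 0.039 for mt-Rnr1 to 0.51 for mt-Nd3. Under quantile normalization only 10 stayed positive, with 3 at 0 (mt-Co1, mt-Co2 and mt-Nd5) and 2 negative (mt-Co3 and mt-Cytb). That method gives a gene that keeps its rank the same value in every library. It therefore removes a shift shared by top-ranked genes, and many mt- genes rank near the top, so the lost signs do not bear on such a shift. Without pair 1, 12 were positive, and likewise without pair 3. The genes share their precursors and their libraries and do not count as 15 independent observations. The nuclear genes of the same 4 pairs averaged 0.0070, 0.0037, -0.027 and 0.044. Of the 2 pairs in which all mt- genes were higher, pair 1 had the lowest striatal and septal and the lowest oligodendrocyte marker mean of the 4 pairs, and pair 3 had the highest oligodendrocyte and the second-highest striatal and septal one. A relation between these markers and the mt- genes was not tested beyond the covariate fits given at the end.

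**Figure D3:**
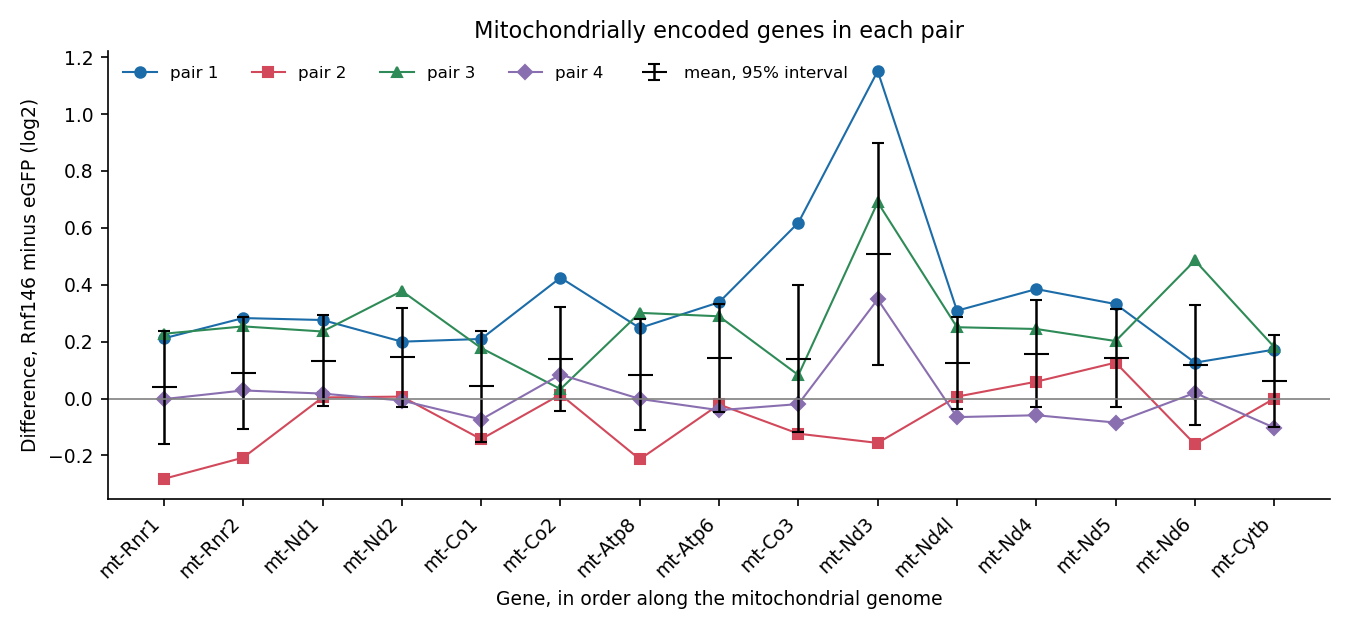
Difference between Rnf146 and eGFP (log2, vertical axis) for the 15 mt- genes in their order along the mitochondrial genome, with one line for each pair and the mean with its 95% limma interval in black. Pairs 1 and 3 lie above 0 at every gene, pairs 2 and 4 scatter around 0 at most genes, and mt-Nd3 stands out with 1.15 in pair 1.

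Among the complex I genes of the mitochondrial genome, mt-Nd1, mt-Nd2, mt-Nd4, mt-Nd4l and mt-Nd5 had much the same profile. Their means were 0.13, 0.14, 0.16, 0.13 and 0.14, and their adjusted p-values lay between 0.48 and 0.52 (limma). mt-Nd1 was higher in all 4 pairs, by 0.28, 0.0039, 0.24 and 0.017. mt-Nd6 is the protein gene read from the other strand, and it differed by 0.13, -0.16, 0.49 and 0.020. Per kilobase of gene its level was 11.64 on the log2 scale, far under the 15.9 to 18.05 of the other protein genes apart from mt-Nd3. The library kit keeps strand, but whether the counting used it is not given in the sources used here, so reads of mt-Nd6 and of the transcripts that run opposite to it may not have been separated.

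mt-Nd3 gave the most positive difference of all 104 genes. Its values were 10.72, 11.37, 10.95 and 11.12 in the eGFP libraries and 11.87, 11.22, 11.64 and 11.47 in the Rnf146 libraries. The groups overlapped, because in pair 2 the eGFP library was the higher one. The differences of 1.15, -0.16, 0.69 and 0.35 gave a mean of 0.51 ± 0.55 (SD, n = 4), a 95% interval from 0.12 to 0.90, an unadjusted limma p of 0.016 and an adjusted p of 0.27. Its spread over pairs ranked 35 among 15039 genes. The interval uses a variance partly shared between genes, so it can be narrower than these 4 differences alone would give. With a robust variance prior the limma adjusted p was 0.44. Per kilobase its log2 level was 12.82, whereas mt-Co3 and mt-Nd4l, its neighbours on either side, were at 17.21 and 16.39.

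The nuclear copy of mt-Nd3 bears on these numbers. Gm28438, which differs from it within the compared bases by the 1 base printed above, was listed at a mean of 13.41, more than mt-Nd3 at 11.29. Of the 2 rows added on a linear scale, 75.8% to 85.8% of the level stood under the copy. These shares come from centred values, so they follow from the mean levels and the pair differences. They do not give the share in a single library. Gm28438 itself differed by 0.20, -0.18, 0.29 and -0.094 in pairs 1 to 4. When the rows were added, the mt-Nd3 differences became 0.38, -0.17, 0.36 and -0.011. Their mean was 0.14 ± 0.28 (SD, n = 4), with a limma adjusted p of 0.58. The row of the copy carries most of the weight in this sum, so the smaller mean partly restates that row. The summed values had the same signs as the average of the mt- genes outside the repeated stretch, 0.23, -0.073, 0.28 and -0.019. Single mt- genes varied, and mt-Nd4, partly in that stretch, had 0.38, 0.059, 0.24 and -0.059.

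mt-Co1, mt-Co2 and mt-Co3 encode the catalytic core of complex IV. mt-Co1 had the smallest mean of the 13 protein genes, 0.043 ± 0.18 (SD, n = 4), from 0.21, -0.14, 0.18 and -0.074. mt-Co2 was at 16.93, 17.13, 17.12 and 17.10 in the eGFP libraries and at 17.35, 17.15, 17.15 and 17.18 in the Rnf146 libraries. It was higher in all 4 pairs, but most of its mean of 0.14 came from pair 1, with differences of 0.42, 0.014, 0.033 and 0.084. mt-Co3 showed the same, with 0.62 in pair 1 and -0.12, 0.083 and -0.020 in the others.

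In pair 1 the copies of mt-Co2 and mt-Co3 went the other way, whereas Gm29216, the copy of mt-Co1, differed by 0.080. Gm28661, the copy of mt-Co2, was at 16.09 in the eGFP library and at 12.67 in the Rnf146 library of pair 1, a difference of -3.42, and at -0.25, 0.76 and -0.53 in pairs 2 to 4. Its spread over the 4 pairs ranked first among the 15039 genes of the table. Its share of the summed level was 35.9% in the eGFP library of pair 1, 3.77% in the Rnf146 library, and 10.3% to 16% in the other 6 libraries. Gm28437 differed from pair to pair by -1.38, -0.082, 0.16 and 0.056, and its share of the summed mt-Co3 level was 44.5% and 16.7% in pair 1 and 28.1% to 29.1% elsewhere. Because the values are centred, the 2 shares of a pair mirror each other and restate the pair difference. The share in a single library cannot be recovered from them. With the copies added, the pair 1 differences were -0.16 for mt-Co2 and 0.033 for mt-Co3, and the means over pairs were -0.013 ± 0.12 and 0.0067 ± 0.090 (SD, n = 4). Neither gene kept its positive pair 1 difference at its earlier size once the identical sequences were read as one.

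mt-Atp6 and mt-Atp8, the mitochondrial subunits of the ATP synthase, overlap each other in the genome. mt-Atp6 differed by 0.34, -0.021, 0.29 and -0.041, a mean of 0.14 ± 0.20 (SD, n = 4). Its copy Gm10925 differed by -3.03, 0.058, -0.95 and 0.12, but held only 1.33% to 12.2% of the summed level in the centred values. The sum kept a mean of 0.089 ± 0.14. mt-Atp8 had a mean of 0.084 and mt-Cytb, the mitochondrial subunit of complex III, 0.063. Over the 7 mt- genes that lie wholly outside the repeated stretch, the average was 0.23, -0.073, 0.28 and -0.019 in the 4 pairs, a mean of 0.10 ± 0.18 (SD, n = 4). Over the 8 that lie in it at least in part, it was 0.46, -0.072, 0.26 and 0.022. The 2 ribosomal RNAs, mt-Rnr1 and mt-Rnr2, were measured in libraries made by poly(A) selection, which keeps only part of such RNA.

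**Figure D4:**
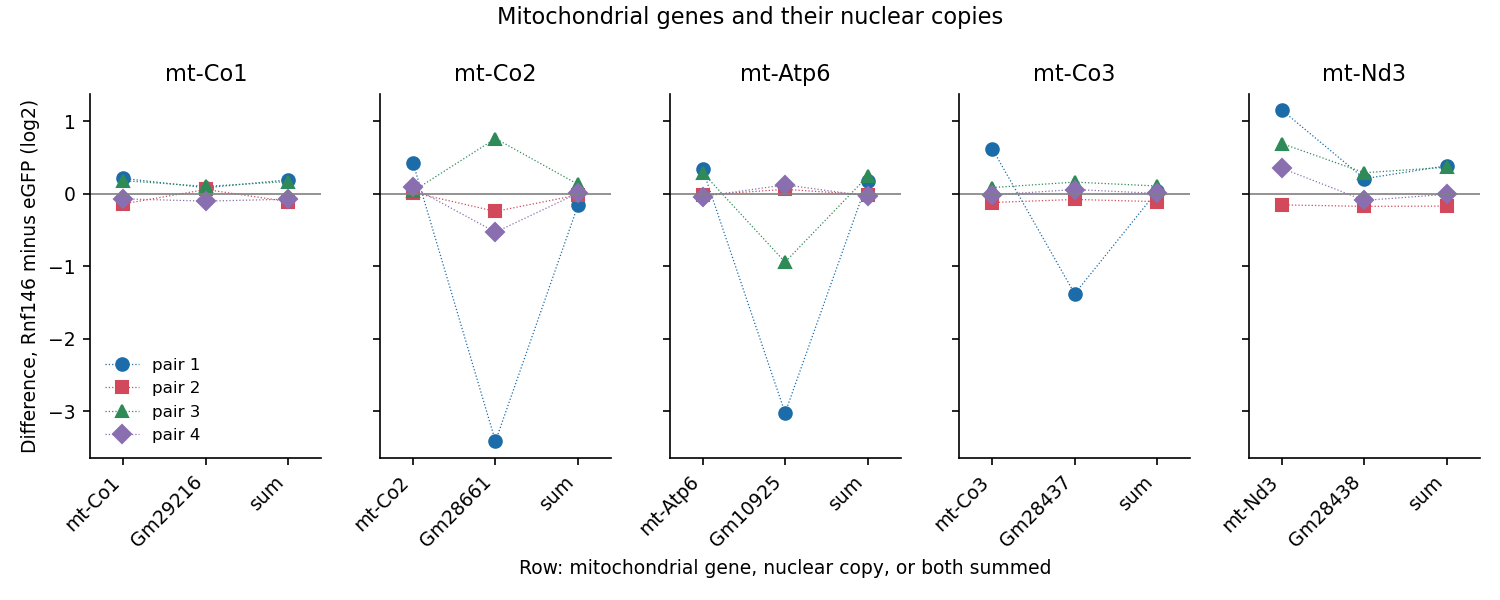
Difference between Rnf146 and eGFP (log2, vertical axis) in each pair for 5 mitochondrial genes, for their nuclear copy and for both added on a linear scale (horizontal axis, left to right in each panel). In pair 1 the copies of mt-Co2, mt-Atp6 and mt-Co3 lie at -3.42, -3.03 and -1.38 while the genes lie above 0, and the sums lie between -0.16 and 0.38 in that pair.

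Genes around the pathway showed no call either, where 1.25% of all genes were called and 12.4% had an unadjusted limma p under 0.05. In lists of this size, 0 calls is close to the share over all genes. Of 17 electron carrier genes with values (18 fixed), 0 passed the test and 1 had an unadjusted limma p under 0.05. The list holds genes that make coenzyme Q, pass electrons toward it or encode cytochromes. The 1 gene was Coq4, with a mean of -0.15 and an adjusted p of 0.35. Cycs, which encodes cytochrome c, had -0.061 and Cyc1, a nuclear-encoded cytochrome of complex III, -0.013. Of 48 further assembly factors with values (52 fixed), 0 passed and 0 had an unadjusted p under 0.05, with a median of 0.0018. Of 19 tricarboxylic acid cycle genes 0 passed and 0 had an unadjusted p under 0.05, although 14 had positive means, with a median of 0.025. Of 11 adenine nucleotide and pore carriers 0 passed and 0 had an unadjusted p under 0.05, with a median of 0.0087.

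The 33 genes for mitochondrial biogenesis and for expression of the mitochondrial genome had a median of 0.016. None passed the test and 2 had an unadjusted limma p under 0.05, beside 1.25% and 12.4% of all genes. These were Fastkd1, from a family of mitochondrial RNA-binding proteins, with 0.22, 0.20, 0.080 and 0.065 and an adjusted p of 0.31, and Tefm, the elongation factor of mitochondrial transcription, with 0.21, 0.24, 0.055 and 0.011 and an adjusted p of 0.37. Both were higher in all 4 pairs. The genes named from these lists around the pathway were chosen after their values were seen. Ppargc1a, the coactivator that drives mitochondrial biogenesis, was at -0.23, 0.27, 0.35 and 0.33. It was negative in one and positive in the other of the 2 pairs in which all mt- genes were higher, and a relation to the mt- genes was not tested. Tfam, which packages and transcribes the mitochondrial genome, had a mean of -0.053, and Polrmt, the mitochondrial RNA polymerase, -0.069.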

How the data were processed

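RNA sequencing of 4 Rnf146-overexpressing and 4 eGFP-overexpressing PFC libraries (stranded mRNA kit) was used, with groups and replicate numbers from the sample labels and each column matched to its sample by name. The authors trimmed reads with Cutadapt, quantified transcripts with Salmon 1.9.0 against GENCODE vM30 (GRCm39) and summarized them by gene. Although the table's name says normalized counts, what the authors deposited is on a log2 scale, 7.86 to 18.8 over 15039 genes, and centred within same-numbered pairs (pair sums differ by at most 1.4e-13). The correlation of same-numbered deviations is therefore fixed at -1. Pairing comes from the replicate numbers and the centring, and what else a pair shared is not given in the sources used here. Depth is unknown, and nothing says how the libraries relate to separate mice beyond their labels, so p-values refer to these samples only. The limma p-values and intervals use a variance drawn toward that of genes with a similar level. They do not rest on a gene's own spread over pairs alone.

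The test was limma 3.58.1 (R 4.3.3) with a replicate block and eBayes with a variance trend (3 residual degrees of freedom, against 6 without the block), and Benjamini-Hochberg adjustment over all 15039 genes. Genes are described as passing the test where the adjusted p was no more than 0.1. The fits were tested on simulated data. With 4 pairs, an exact two-sided sign-flip test cannot go below 0.125 and was not used. Lists were described by counts and medians. The members, the lists and the naming rule were chosen with earlier results of these data known. The rule named the largest and smallest mean difference in each complex and in the mt- protein-coding genes, fixed catalytic subunits, fixed isoform groups, every mt- gene coding for protein and Rnf146. Of the 104 genes, 102 matched GENCODE vM39 (GRCm39), from which coordinates were taken. Gm10925 was matched through RefSeq and its symbol Atp6-ps. Copies were found with blastn 2.17.0 at 95% identity or more, over 200 aligned bases or more and 60% of the copy, and 10 of the 104 genes had one in the table. Rows were summed, and shares of the sums taken, as powers of 2 of the deposited values, which is approximate after centring. Alternatives were no block, no variance trend, a robust prior, median centring, quantile normalization, the lowest 25% of genes by level left out, a threshold of 0.05, marker covariates, a length and GC correction and each pair left out. The summing of copies was added after the data had been seen.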

Additional observations from a re-analysis of the deposited data

Results flagged for a closer look

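Of 64 values tested for a pair that lies far from the other 3 (Dixon's test, which chance meets in about 1 in 20 groups), 4 did so. Ndufaf8 was at -0.0167 in pair 4, while its other pairs were all near -0.11. mt-Co2 was at 0.425 in pair 1 and Gm28437, the nuclear copy of mt-Co3, at -1.38 in the same pair. The mean of the nuclear complex IV genes was 0.0259 in pair 4, with the other 3 pairs between -0.040 and -0.033.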

How the results depend on the processing

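The replicate block decided the number of calls: without it 3226 genes and 8 of the oxidative phosphorylation genes were called (Atp5j2, mt-Nd1, mt-Nd3, Ndufb1, Ndufb4c, Ndufs1 and Ndufv2 with positive and Ndufaf8 with negative differences), against 188 and 0. At a threshold of 0.05, 80 genes were called. Leaving out 1 pair gave 14 to 421 genes called, 421 without pair 1, 42 without pair 2, 169 without pair 3 and 14 without pair 4, and 0 oxidative phosphorylation genes each time. With the striatal and septal marker covariate 1 gene was called, and the means became -0.049 for complex II, 0.36 for the mt- rRNAs, 0.35 for the mt- genes and 0.067 for all 104 genes. The cause was not tested. This fit gives the value at a marker difference of 0, whereas the pairs were at 0.22, 0.95, 0.51 and 0.33. Its values, and the signs below, are thus extrapolated and not differences freed of tissue composition. With the oligodendrocyte covariate 257 genes and 0 of the 104 were called, and the mt- mean was 0.20. The mt- mean was 0.091 with the nuclear copies summed, 0.070 under quantile normalization, and 0.066 without pair 1, 0.094 without pair 3 and 0.21 without pair 2, against 0.14. Quantile normalization by its nature removes part of a shift shared by top-ranked genes. The mt- rRNA mean was 0.0030 without pair 1, 0.0052 without pair 3 and 0.17 without pair 2, against 0.064. Of the 47 named genes, 7 changed sign with the striatal and septal covariate, among them Sdhc (-0.022), Uqcrq (-0.032) and Atp5a1 (-0.046), 4 with the oligodendrocyte covariate, 8 without pair 1 and 3 to 5 without another pair. Other than in the fit without the block 0 of the 104 genes were called. Depth is unknown, so the changes that counting error could hide were not estimated.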
